A study of Mus musculus with 6 samples.

Results

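Il17a and Il17f, the paired cytokine genes of the Th17 lineage, were followed through 6 mouse T cell libraries, 3 from Il17a knockout (IL-17A-/-, KO) and 3 from wild-type (IL-17A+/+, WT) animals. The members were the rows carrying either gene symbol, 2 of 38483 genes and 2 of 93480 transcripts, since each gene had 1 annotated transcript. All animals were on the B10.RIII background. CD4+CD62L+ T cells, mostly naive helper cells, were selected from spleen and cultured for 3 days under Th17 conditions. The medium held 10 ng/ml of IL-6, 10 ng/ml of IL-23 and 1 ng/ml of TGF-β, together with 10 µg/ml of a blocking antibody against IFN-γ and 10 µg/ml of one against IL-4. The sources used here do not give how the allele was made, the animals' ages and sexes, or whether a library pooled animals. The design calls the 3 libraries of a genotype biological replicates. In such bulk libraries, more RNA per cell and more cells making it cannot be told apart.

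IL-17A and IL-17F are secreted dimeric cytokines that pair with themselves or with each other. They act through a receptor of IL-17RA and IL-17RC, which recruits the adaptor Act1 and induces chemokines and antimicrobial proteins in epithelium and stroma. In T cells both genes are switched on by STAT3, BATF and IRF4 downstream of IL-6, TGF-β and IL-23, and IL-17A is the more potent inducer of inflammation.

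The 2 genes lie side by side and point toward each other on chromosome 1 of GRCm38. Il17a (ENSMUSG00000025929) runs from 20730905 to 20734496 on the plus strand and Il17f (ENSMUSG00000041872) from 20777151 to 20784270 on the minus strand, with start sites 53365 bases apart. The deposited transcripts are alike in length, at 1171 nt for Il17a and 1173 nt for Il17f, and in GC content, at 42.4% and 44.8%. In GENCODE M21 each transcript has 3 exons, and the coding parts hold 158 and 161 codons without the stop. GENCODE M21 gives the Il17a transcript the deposited length and the Il17f transcript 5 nt more. Aligned end to end, the coding parts were identical at 297 of 463 ungapped positions, or 64.1%. The longest exact run common to the whole transcripts was 11 bases, and no run of 15 bases was shared. The 90 coding bases with most identity are shown because they bear on how far reads of the genes could be mistaken for each other. They lie in exon 3 of each gene, at chr1:20733718-20733807 (plus strand) and chr1:20777819-20777908 (minus strand), and 67 of 90 bases, in capitals, match.
Il17a: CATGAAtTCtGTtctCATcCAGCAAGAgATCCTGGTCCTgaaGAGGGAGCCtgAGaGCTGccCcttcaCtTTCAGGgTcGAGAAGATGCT
Il17f: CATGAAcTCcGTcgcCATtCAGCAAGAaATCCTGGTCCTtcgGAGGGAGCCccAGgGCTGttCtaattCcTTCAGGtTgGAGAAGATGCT

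The upstream sequences are shown because the genes share their locus and their known activating factors. Both come from RefSeq on GRCm38.p6 and cover the 250 bases before each start site, at chr1:20730655-20730904 (plus strand) for Il17a and chr1:20784271-20784520 (minus strand) for Il17f. Capitals mark every match, on either strand, to 5 motifs. AGGTCA is a core that nuclear receptors bind. The RUNX motif searched was ACCACA. For STAT factors the letters were TTCNNNGAA. For AP-1 and BATF they were TGANTCA. The TATA box was searched as TATAAA. No matches to different motifs overlapped.
Il17a: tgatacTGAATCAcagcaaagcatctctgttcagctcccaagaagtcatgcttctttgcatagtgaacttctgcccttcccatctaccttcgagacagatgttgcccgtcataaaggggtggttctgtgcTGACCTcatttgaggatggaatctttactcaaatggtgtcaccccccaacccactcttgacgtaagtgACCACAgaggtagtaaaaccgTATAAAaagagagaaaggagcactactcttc
Il17f: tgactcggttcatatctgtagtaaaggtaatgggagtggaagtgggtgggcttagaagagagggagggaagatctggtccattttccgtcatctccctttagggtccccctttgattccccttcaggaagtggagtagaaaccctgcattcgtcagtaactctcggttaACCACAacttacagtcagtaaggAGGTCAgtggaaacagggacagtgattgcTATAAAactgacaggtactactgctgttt
Each window held 1 nuclear receptor core, 1 RUNX match and 1 TATA box. The nuclear receptor core began 120 bases before the Il17a start, on the opposite strand, and 58 bases before the Il17f start, on the gene's own strand. Of 32851 promoter windows of this length, 14.02% held the nuclear receptor core, 14.05% the RUNX motif, 12.4% the TATA box and 2.23% both the nuclear receptor and RUNX motifs. The AP-1 motif was in the Il17a window only and in 6.75% of windows, and the STAT motif, in 7.02% of windows, was in neither.

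Libraries held 47335736 to 49743762 estimated counts, with 14750 to 15302 genes at 10 counts or more. CPM below are TMM-scaled, and levels compared between genes are per kilobase of transcript. KO 1 stood apart together with WT 1 in Cd8a, the CD8 coreceptor gene, at 425 and 257 CPM, against 33.7 to 66.0 CPM in the other 4 libraries. The libraries also differed in sex-linked transcripts: Xist, expressed from the inactive X chromosome, was at 2.58, 0 and 626 CPM in KO 1, 2 and 3 and at 567 to 663 CPM in WT. Ddx3y, a Y chromosome gene, was at 44.4, 38.0 and 0 CPM in KO 1, 2 and 3 and at 0.451 CPM or less in WT. KO 1 and KO 2 thus differed from every WT library in both genes, so genotype and sex-linked differences cannot be told apart there. Libraries with the same replicate number deviated from their genotype's mean together, so values are also given by same-numbered pair. edgeR's quasi-likelihood test called 0 of 15121 genes between the genotypes (0%) at an adjusted p under 0.05, with 253 genes at an unadjusted p under 0.05 (1.67%). Limma-voom called 0, with 276 at an unadjusted p under 0.05 (1.83%). DESeq2 called 13 of the 15084 genes it gave an adjusted p (0.0862%). Its fit that also had the replicate number as a term, the paired fit below, called 381 of 14241 (2.68%). With the same term edgeR and limma-voom each called 0 of 15121 (0%), with 1471 (9.73%) and 1642 (10.9%) at an unadjusted p under 0.05. Calls of paired DESeq2 below therefore rest on that tool alone. Counts were also simulated, in a single draw per setting. There the calls of all 3 tools, DESeq2's the most, held a larger share of unchanged genes than the threshold of 0.05 allows.

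Il17a transcript was nearly absent from the KO libraries, which checks the genotype labels. It was at 1.11, 0 and 0.0202 CPM in KO 1, 2 and 3, against 160.5, 211.0 and 107.8 CPM in WT 1, 2 and 3. The KO values rest on 57, 0 and 1 estimated counts, so 57 of the 58 KO counts came from KO 1, and a count of 0 in KO 2 allows up to 0.0613 CPM. Il17a in KO 1 was 0.697% of the WT mean and 0.694% of WT 1. It amounted to 0.0863% of the Il17f level per length in the same library, against 0.00279% in KO 3. The source of the counts in KO 1 was not tested. The edgeR log2 change was -8.70 (95% interval -11.78 to -5.61), with the second smallest unadjusted p of all genes, 2.99e-04, and an adjusted p of 0.9999. Without KO 1 the edgeR log2 change was -13.62 with an adjusted p of 0.0124. DESeq2 called it lower, with adjusted p values of 0.00855 unpaired and 4.44e-06 paired, beside 5 (0.0331%) and 227 (1.59%) genes called in that direction. Within WT, Il17a varied 1.96-fold between libraries, the highest being WT 2 and the lowest WT 3.

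Il17f was higher in every KO library than in any WT library. It was at 1284, 433.1 and 1035 CPM in KO 1, 2 and 3, against 376.0, 301.0 and 259.5 CPM in WT 1, 2 and 3. KO 1 and KO 3 stood well above WT, whereas KO 2 exceeded WT 1, the highest WT library, by little. The means were 918 ± 438 CPM in KO and 312 ± 59.0 CPM in WT (SD, n = 3 each), and KO libraries spread 2.97-fold against 1.45-fold in WT. Non-overlap of this kind, with KO higher, was found in 455 of 15121 tested genes (3.01%).

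**Figure D1:**
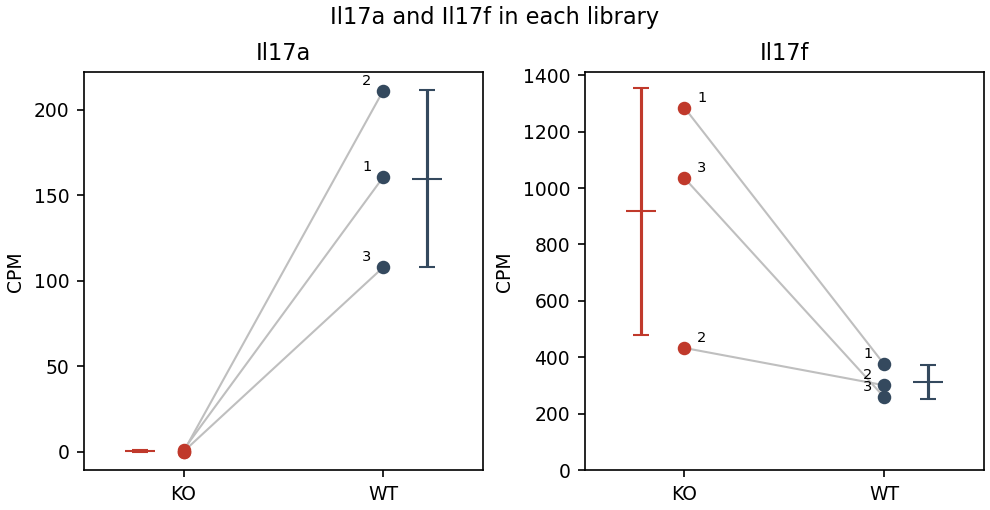
CPM of Il17a (left panel) and Il17f (right panel) in each library, with KO left of WT. Points are libraries, labelled by replicate number except for the KO points of Il17a near 0, grey lines join equal numbers, and bars give the mean ± SD of 3; Il17f lies at 433.1 to 1284 CPM in KO and at 259.5 to 376.0 CPM in WT.

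The edgeR log2 change of Il17f was 1.56 (SE 0.39, 95% interval 0.63 to 2.48), or 2.94-fold with an interval of 1.55 to 5.58. The unadjusted p was 0.00538, the 22nd smallest of 15121, and the adjusted p was 0.9999, so the difference did not pass edgeR's quasi-likelihood test. By size the change ranked 190th among the genes tested. DESeq2 called Il17f higher in KO, with adjusted p values of 0.0481 unpaired and 0.0433 paired, beside 8 (0.053%) and 154 (1.08%) genes called in that direction. Among those 154, its paired change of 1.43 ranked 54th. The paired DESeq2 call was lost without the number 1 libraries (log2 change 1.27, adjusted p 0.892). An exact permutation test of mean log2(CPM + 0.5), two-sided, gave p = 0.1, the smallest that 3 against 3 libraries allow (adjusted p 0.2 over 4 such tests). That test ignores the pairing. An exact sign-flip test of the differences within same-numbered pairs gave p = 0.25, the smallest that 3 pairs allow. Il17f was higher in KO in 3 of 3 same-numbered pairs, as were 16.6% of tested genes. The KO to WT ratios were 3.42, 1.44 and 3.99 in pairs 1, 2 and 3. Libraries matched in Xist in pair 3 alone, and the part of sex-linked differences in Il17f was not tested.

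**Figure D2:**
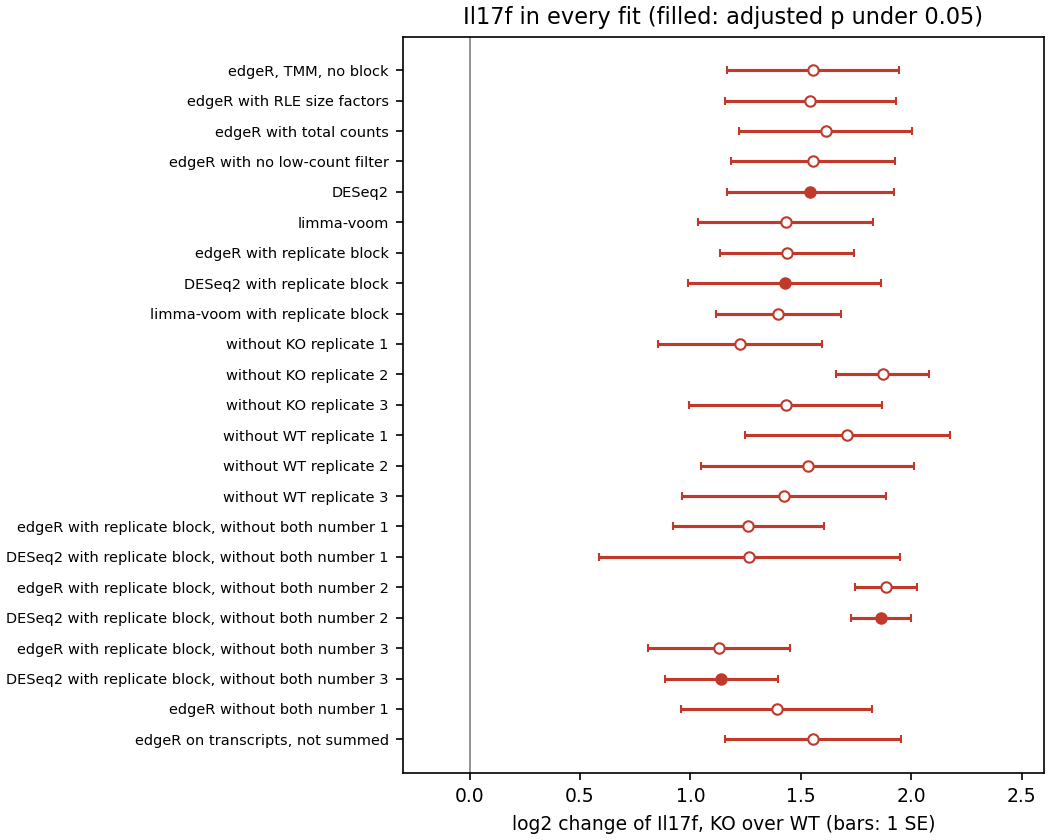
Log2 change of Il17f, KO over WT, in each of 23 fits; points are estimates, bars are 1 SE, and filled points have an adjusted p under 0.05. All 23 estimates lie between 1.13 and 1.88, and the 4 filled points are DESeq2 fits.

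Per length, Il17f was also the more abundant member in WT. The levels were 320.5, 256.6 and 221.2 CPM per kilobase for Il17f in WT 1, 2 and 3, and 137.0, 180.2 and 92.0 for Il17a in the same libraries. Il17f thus exceeded Il17a in 3 of 3 WT libraries, by 2.34-fold, 1.42-fold and 2.40-fold, and made up 66.5 ± 6.70% of the summed level (SD, n = 3). WT 2 had the highest Il17a level of the 3 but not the highest Il17f level. Among all genes in the table, Il17f ranked 154th, 331st and 171st by level per length in KO 1, 2 and 3 and 371st to 485th in WT, and Il17a ranked 664th to 1133rd in WT.

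The summed level of the pair was higher in KO in 2 of 3 same-numbered pairs. It was 1096, 369.2 and 882.4 CPM per kilobase in KO 1, 2 and 3, against 457.6, 436.8 and 313.3 in WT 1, 2 and 3. KO 2 fell below WT 1 and WT 2, so the groups overlapped. The difference was 0.84 on the log2 scale (exact permutation test, two-sided, p = 0.3, adjusted p 0.3 over 4 tests). Within pairs, the KO library held more Il17f by 774.5, 112.6 and 661.2 CPM per kilobase, and less Il17a by 136.1, 180.2 and 92.0. The Il17f excess was therefore 5.69 and 7.19 times the Il17a deficit in pairs 1 and 3, and 0.625 times the deficit in pair 2.

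**Figure D3:**
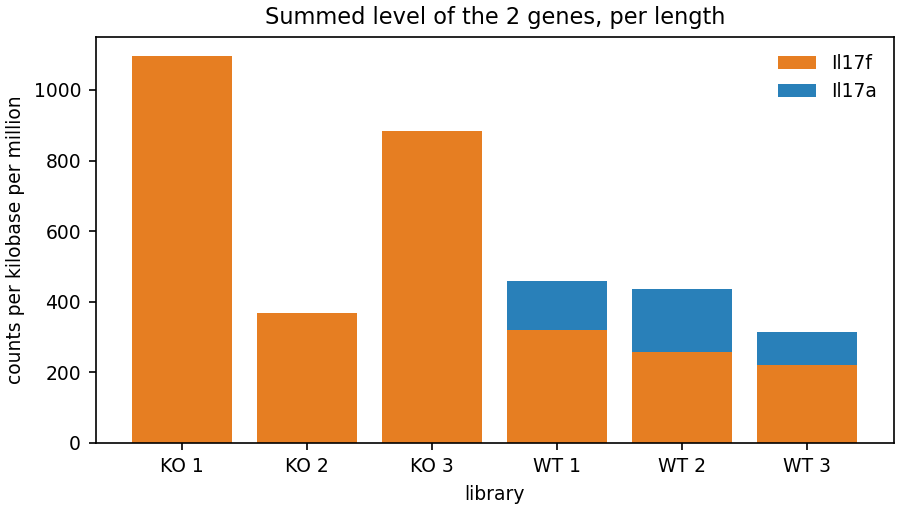
Summed level of Il17f (orange) and Il17a (blue) in CPM per kilobase in each library, KO left of WT. The sums are 1096, 369.2 and 882.4 in KO and 457.6, 436.8 and 313.3 in WT, and the blue part is visible in WT only.

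Relative to Cd3e, a CD3 chain gene that all T cells express, Il17f differed as it did in CPM. The ratio of levels per length was 7.08, 2.43 and 7.76 in KO 1, 2 and 3, against 2.15, 1.89 and 1.70 in WT, with no overlap. The log2 difference was 1.43 (exact permutation p = 0.1, two-sided, adjusted p 0.2 over 4 tests). By the sign-flip test of the paired differences p was 0.25, again the smallest possible.

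**Figure D4:**
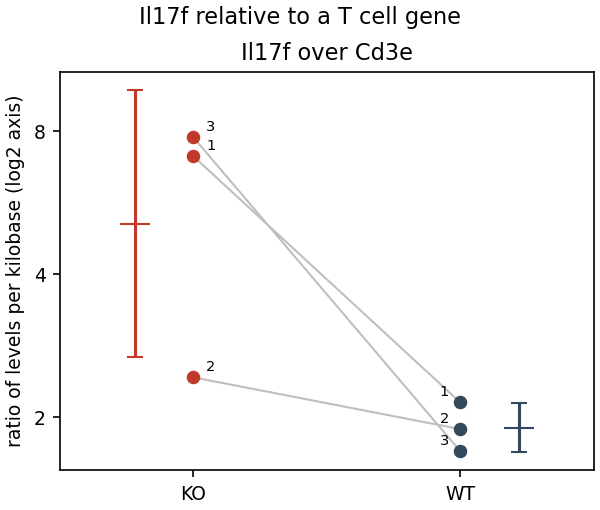
Level of Il17f divided by that of Cd3e, per length, on a log2 axis, with KO left of WT. Points are libraries labelled by replicate number, grey lines join equal numbers, and bars give the mean ± SD of 3 log2 ratios; the ratio is 2.43 to 7.76 in KO and 1.70 to 2.15 in WT.

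Markers of other cell types were present beside those of CD4 T cells, and none was at 0 in every library. The sums for gamma-delta, CD8, NK and NKT, B and myeloid cells were each higher in KO in 3 of 3 same-numbered pairs. So was Il17f, as were 16.6% of all tested genes. Gamma-delta T cells are a known source of both cytokines. Of their 7 markers, all but Trdc were found. The 6 summed to 99.7, 137.8 and 91.9 CPM in KO 1, 2 and 3, against 70.7, 79.3 and 62.7 CPM in WT. Blk and Cd163l1 differed most, with means of 29.2 and 33.3 CPM in KO and 13.0 and 18.1 CPM in WT. Tcrg-C4 was level, at 22.2 CPM in KO and 22.4 CPM in WT. Tcrg-C1, Tcrg-C2 and Blk were higher in KO in 3 pairs, Sox13 and Cd163l1 in 2 and Tcrg-C4 in 1. The sum was highest in KO 2, where Cd163l1 was at 60.2 CPM. Of these 6 only Blk, a kinase gene that B cells also express, passed the paired test, rising by a log2 change of 1.11 (SE 0.21, DESeq2 adjusted p 2.26e-05). CD8 T cell markers, 2 of 2 found, summed to 112 to 658 CPM in KO and 71.2 to 423 CPM in WT. NK and NKT markers, 4 of 4 found, summed to 117 to 334 CPM in KO and 58.5 to 198 CPM in WT. Nearly all of this sum was Klrd1, at 113 to 333 CPM in KO and 57.0 to 196 CPM in WT. Ncr1, Klrb1c and Zbtb16 stayed at 2.04 CPM or less and were higher in KO in 1, 2 and 1 of 3 pairs. B cell markers, 4 of 4 found, summed to 45.1 to 356 CPM in KO and 42.0 to 165 CPM in WT. Myeloid markers, 3 of 4 found, summed to 18.2 to 154 CPM in KO and 5.14 to 79.4 CPM in WT. In pair 1 the myeloid sums were close, at 25.9 CPM in KO and 23.0 CPM in WT. The B cell gene Cd79a and the myeloid gene Csf1r were each higher in KO in 2 of 3 pairs, and the others of these lists in every pair. The CD4 T cell list, Cd4 and 3 CD3 chains that other T cells share, 4 of 4 found, summed to 1778 to 2231 CPM in KO and 1613 to 2452 CPM in WT. Cd4 itself, the coreceptor used in the selection, was at 245.5, 633.4 and 379.4 CPM in KO 1, 2 and 3, against 523.2, 579.3 and 490.2 CPM in WT. It was lower in KO in pairs 1 and 3 and higher in pair 2, and the groups overlapped (paired DESeq2 log2 change -0.45, SE 0.21, unadjusted p 0.0321, adjusted p 0.366). No marker of this list passed in the paired DESeq2 fit, whereas Cd8a, the NK receptor gene Klrd1, the B cell gene Ms4a1 and the myeloid integrin gene Itgam were among the markers called higher in KO. Of all genes, that fit called 1.08% higher in KO. The part of these cells in the Il17f difference was not tested.

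The remaining ligand genes of the IL-17 family were silent or nearly so. Il17b, Il17d and Il25 were at 0 in all 6 libraries, which allows up to 0.0586 to 0.0676 CPM in a library, and Il17c reached 0.021 CPM at most. The receptor genes were expressed at unequal levels. Il17ra, the chain shared across the family, was at 138.8, 184.7 and 172.0 CPM in KO and 174.5, 180.2 and 193.2 CPM in WT (log2 change -0.14, SE 0.15, 95% interval -0.50 to 0.21). Il17rc, its partner for both cytokines, was at 0.854 ± 0.513 CPM in KO and 0.519 ± 0.237 CPM in WT, and Il17rd and Il17re differed by log2 changes of 0.74 (SE 0.68) and 0.29 (SE 0.27). Il17rb was too low to test. Of 7 receptor chains and adaptors 6 were tested, and none passed; the adaptor gene Traf6 had a log2 change of -0.32 (SE 0.35).

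Of 49 tested genes of the pathway other than the pair, edgeR called 0 (0% of all genes). Among the 49, 1 had an unadjusted p under 0.05 (1.67% of all genes). Unpaired DESeq2 also called 0 of these 49. Paired DESeq2 called 4 (2.68% of all genes), of which 2 were higher and 2 lower in KO. None of the 11 transcription factors that promote Il17a and Il17f passed in either fit, and their median log2 change was 0.03, against 0.01 over all genes tested. Stat3, which relays IL-6 and IL-23, was at 841 ± 205 CPM in KO and 818 ± 248 CPM in WT (log2 change 0.04, SE 0.27). Rora, a nuclear receptor gene, had a log2 change of 0.07 (SE 0.58). The members of this list with the smallest p were Junb, Rel and Irf4, with log2 changes of -0.27 (SE 0.25), 0.45 (SE 0.53) and -0.25 (SE 0.36).

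Among 9 factors that restrain the pair, 2 fell and 1 rose in the paired DESeq2 fit, against 1.59% and 1.08% of all genes. None passed in edgeR, where the paired fit gave these 3 adjusted p values of 0.254 to 0.366. The list's median edgeR log2 change was -0.30. Foxp3, the factor that defines regulatory T cells, was at 11.3, 25.2 and 14.8 CPM in KO 1, 2 and 3, against 14.7, 48.2 and 30.8 CPM in WT. It was lower in KO in every pair and fell by 0.81 (SE 0.19, adjusted p 0.00286), while the ranges of the genotypes overlapped. Nfil3, a leucine zipper repressor, was at 59.5, 83.1 and 132 CPM in KO and 83.0, 168 and 199 CPM in WT, and fell by 0.70 (SE 0.14, adjusted p 2.41e-04). Tbx21, the Th1 factor, was at 61.7, 15.05 and 9.65 CPM in KO 1, 2 and 3 and 35.0, 8.36 and 6.51 CPM in WT, and rose by 0.74 (SE 0.16, adjusted p 7.43e-04). In edgeR, its log2 change of 0.79 turned to -0.43 without KO 1. With any 1 same-numbered pair left out, paired DESeq2 still called Nfil3 (adjusted p 2.41e-04 with all pairs, at most 0.0431 without 1). Tbx21 did not pass with any 1 of the 3 pairs left out (adjusted p 0.0708 to 0.584), at log2 changes of 0.68 to 0.82. Foxp3 did not pass without pair 2 (log2 change -0.74, adjusted p 0.236) or pair 3 (-0.67, adjusted p 0.508). Stat5a, which carries the IL-2 signal and competes with STAT3 at the Il17a locus, was at 232 ± 35.1 CPM in KO and 297 ± 71.5 CPM in WT and did not pass (log2 change -0.36, SE 0.21).

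**Figure D5:**
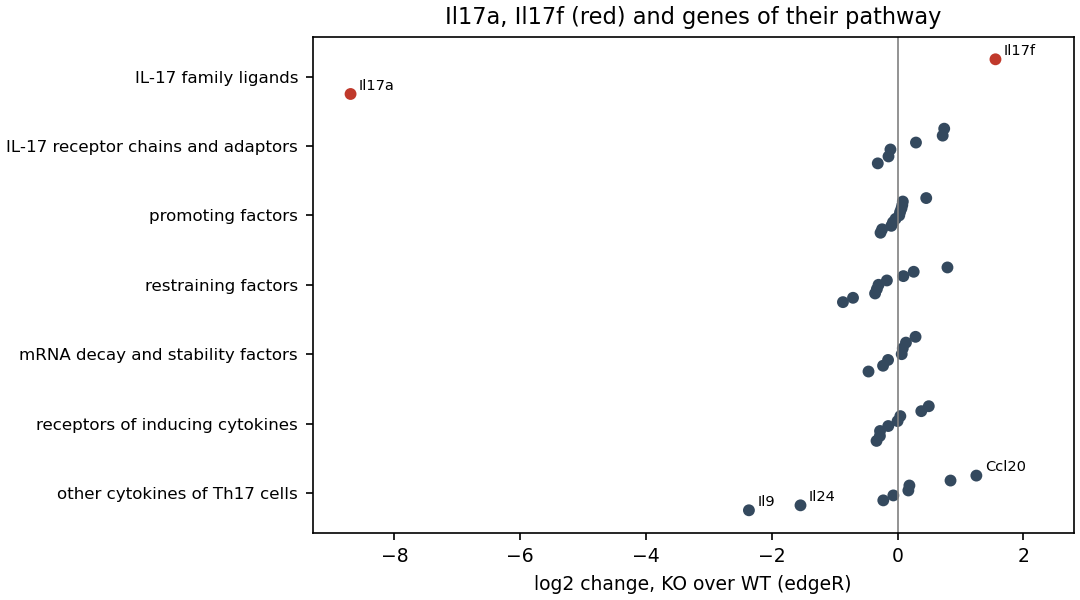
Log2 change, KO over WT, in edgeR for Il17a and Il17f (red) and the 49 other tested genes of 7 pathway lists (dark), one row a list. The pair lies at -8.70 and 1.56, and the other genes between -2.36 and 1.25.

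The 7 factors of mRNA decay and stability held the single pathway gene with an unadjusted edgeR p under 0.05. This was 1 of 49 pathway genes, beside 1.67% of all tested genes. Zfp36 encodes tristetraprolin, which speeds decay of AU-rich cytokine mRNAs. It was at 76.3, 98.3 and 82.0 CPM in KO against 113.8, 103.8 and 135.9 CPM in WT, with no overlap, as in 3.13% of tested genes lower in KO (log2 change -0.46, SE 0.16, edgeR unadjusted p 0.0262 and adjusted p 0.9999). Neither Zc3h12a (Regnase-1, log2 change -0.23, SE 0.18) nor Rc3h1 (roquin-1, 0.29, SE 0.17) passed. None of the 8 receptor chains for inducing cytokines passed. Il1r1, through which IL-1 sustains Th17 cells, was at 18.9 ± 3.00 CPM in KO and 14.6 ± 1.93 CPM in WT (log2 change 0.38, SE 0.19), and Il23r at 3.56 ± 1.61 and 2.52 ± 1.34 CPM in KO and WT. Il12rb1, shared by the IL-12 and IL-23 receptors, and Il21r had log2 changes of -0.28 (SE 0.24) and -0.15 (SE 0.14).

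Of the 8 other cytokine genes that Th17 cells express, 1 rose in the paired DESeq2 fit, against 1.08% of all genes, and none passed in edgeR. Ccl20, the ligand of CCR6, was at 3.42, 5.85 and 16.1 CPM in KO 1, 2 and 3, against 2.22, 2.64 and 5.78 CPM in WT (paired log2 change 1.08, SE 0.29, adjusted p 0.0123). Like Il17f it was higher in KO in every pair, but its highest library was KO 3 and that of Il17f was KO 1. In paired DESeq2 Ccl20 did not pass without pair 2 (log2 change 1.04, adjusted p 0.266) or pair 3 (0.88, adjusted p 0.99996), and in paired edgeR its adjusted p was 0.366. Il24 and Il22, of the IL-10 family, were higher in KO in pair 1 alone. Their edgeR log2 changes were -1.54 (SE 0.66) and 0.84 (SE 1.18), and that of Il9 was -2.36 (SE 1.36). Both negative values lean on WT 2, where Il24 was at 165 CPM and Il9 at 10.3 CPM: without it they were -0.72 for Il24 and -0.66 for Il9.

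The locus around the pair held 14 other annotated genes with start sites within 500 kb of that of Il17a, of which 6 were tested and 0 called in edgeR or the paired DESeq2 fit. Mcm3, a subunit of the replicative helicase and the nearest tested gene beyond Il17f, was at 158, 121 and 155 CPM in KO and 121, 134 and 123 CPM in WT (log2 change 0.20, SE 0.15). Paqr8 (a membrane progestin receptor), Tram2 and Tmem14a had log2 changes of 0.60 (SE 0.52), 0.15 (SE 0.24) and 0.29 (SE 0.33). Pkhd1, which encodes fibrocystin and lies on the Il17a side, stayed at 1.02 CPM or less in every library, with a log2 change of 2.12 (SE 0.79), and paired DESeq2 gave it no adjusted p. Of the 8 genes not tested, 6 were at 0 in all libraries.

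Likeness of pattern was measured over the 6 libraries as the root mean square difference of log2(CPM + 0.5), centred on each gene. Nearest to Il17f of 15120 genes were Igkv1-117 (0.21), Igkv13-84 (0.32), Ighv5-17 (0.33) and Vipr2 (0.33), against a median of 0.91 over all genes. The first 3 are immunoglobulin variable segments of B cells, at 9.03 CPM or less, whose estimated counts are uncertain because such segments resemble each other. Vipr2, a receptor gene for vasoactive intestinal peptide, was at 6.12, 1.19 and 2.104 CPM in KO 1, 2 and 3 and 0.636, 0.406 and 0.480 CPM in WT. Because likeness was sought among all genes, closeness alone carries no test. No gene came near Il17a: its closest, Gm25305, Gm11223, mt-Nd4l and Ppp1r2-ps4, lay 2.89 to 3.05 away, against 3.89 for a gene with no change at all.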

How the data were processed

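The authors deposited 1 table of estimated counts, per the file headers with 1 row for every transcript and 1 column for each library. It also lists transcript lengths and GC, a fraction that the authors supplied. Per the submitters' processing notes, the tools were Bowtie2 2.1.0 and eXpress 1.3.1 and the build was GRCm38. The annotation release and the way reads were counted are not stated there. No per-sample column was left unused. Counts were summed per gene and rounded. edgeR 4.0.16 (quasi-likelihood test, TMM scaling, filterByExpr, no block, Benjamini-Hochberg adjustment over 15121 genes, threshold 0.05) in R 4.3.3 was the main test. DESeq2 1.42.0 and limma-voom (limma 3.58.1) were alternatives, as were fits with the replicate number as a block. SEs of edgeR are the log2 change divided by the square root of F. edgeR, DESeq2 and limma-voom, with and without the block, were tested on a single simulated draw per setting. Fold changes came back near their set size on average, while calls held more unchanged genes than the threshold allows, in DESeq2 the most. The other fits were not simulated. Levels between genes are per kilobase of each transcript, scaled alike. The whole-count floor of 3 covers counting error only.

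The meaning of a replicate number is not stated, so pairing was checked from the data. Across genes, the deviations of a KO and a WT library from their own group means had r of 0.60, 0.45 and 0.64 where numbers matched and of -0.17 to -0.47 where they did not. The numbers were therefore taken to pair the samples. No libraries of a group agreed within sampling noise.

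Members, gene lists and tests were chosen with earlier results of these data known. Genes were named as the 3 smallest p of each pathway list (marker lists are given as sums with their called genes), a fixed set (Rora, Stat3, Il17ra, Il17rc, Il23r, Il22 and Il24), every listed gene called, neighbours within 500 kb and the 4 nearest patterns of each member; some of the results this gives are not reported here. Figures used matplotlib 3.10.9, and exact tests scipy 1.17.1.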

Additional observations from a re-analysis of the deposited data

How the results depend on the processing

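The log2 change of Il17f was positive in all 23 fits, from 1.13 to 1.88, and without each library in turn it ran from 1.22 to 1.87 in edgeR with adjusted p near 1. With the replicate block edgeR gave 1.44 (adjusted p 0.366). Il17f passed in DESeq2 (1.54), in paired DESeq2 (1.43) and in paired DESeq2 without the libraries of number 2 (1.86) or 3 (1.14); without those of number 1 it did not. Il17a passed in DESeq2 (-8.74), in paired DESeq2 (-11.97; without number 1, 2 or 3 -13.88, -8.78 and -11.45) and in paired edgeR without number 1 (-13.59). Without 1 library its edgeR change ran from -13.62 to -8.15, and it passed only without KO 1. Genes called numbered 0 in edgeR, 13 in DESeq2 and 381 in paired DESeq2, 8 in paired edgeR without number 1, and 176, 264 and 149 in paired DESeq2 without number 1, 2 and 3; without 1 library, edgeR called 0 to 1. Pathway genes called were 0 in edgeR, 4 in paired DESeq2, and 4, 4 and 1 without number 1, 2 and 3. The differences of the exact tests in the text kept their sign in every alternative.

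Signs turned for several genes, of which Il22, Tbx21 and Rel had log2 changes of 0.84, 0.79 and 0.45 in the main edgeR fit. By same-numbered pair, Tbx21 was higher in KO in 3 of 3. Over the edgeR fits without 1 library, log2 changes ran from -0.013 to 0.42 for Il17re, -0.59 to 0.041 for Traf6, -0.56 to 0.59 for Rora, -0.14 to 0.30 for Stat3, -0.049 to 0.79 for Rel, -0.63 to 0.10 for Irf4, -0.43 to 1.94 for Tbx21 and -1.82 to 1.74 for Il22. Rora was -0.064 in paired edgeR, -0.076 in paired DESeq2, -0.0695 in paired limma-voom and -0.0693 in unpaired limma-voom. Il22 was -0.064 in paired edgeR, -0.12 in paired DESeq2 and -0.10 in unpaired limma-voom. Without number 1, paired edgeR, paired DESeq2 and unpaired edgeR gave -0.22, -0.22 and -0.25 for Stat3, and -0.81, -0.80 and -0.90 for Il22, and paired DESeq2 gave 4.47e-04 for Junb. Without number 2, paired edgeR and paired DESeq2 gave -0.0096 and -0.029 for Il17re and -0.32 and -0.34 for Rora, and paired DESeq2 -0.026 for Il22. Without number 3, Rora was -0.19 in both paired fits. The cause was not tested. Depth limits Il17a in KO and the low receptor genes.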
